A study of Mus musculus with 5 samples.

Results

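Expression of 10 genes that encode transcriptional regulators of *Il9*, the gene of the cytokine IL-9, was examined in 5 cultures of mouse T helper (Th) cells, beside the level of *Il9* itself. The 10 genes were the activators *Stat6*, *Stat5a*, *Stat5b*, *Batf*, *Batf3*, *Irf4*, *Irf8*, *Spi1* (which encodes PU.1) and *Etv5*, and the repressor *Id3*. A gene was taken from the transcript clusters, which are the probe groups of the array, that the platform annotation assigns to a single symbol, and where several carried that symbol the one with the highest mean was used. All 10 were found among the 22180 genes measured in this way. Naive CD4+ CD62L+ T cells came from the spleens of TRP-1 mice, a strain that carries a transgenic T cell receptor for tyrosinase-related protein-1 and, per its strain name, a mutation of *Rag1*. They were cultured for 3 days with the TRP-1 peptide and irradiated antigen-presenting cells, which were spleen cells of C57BL/6 mice depleted of T cells. The study's methods name no step that sorted the cultures before RNA was extracted. Th9(IL4+TGFb) cells, called classic Th9 here, received IL-4 at 10 ng/ml and TGF-β at 1 ng/ml. Th9(IL4+IL-1b) cells, called IL-1β Th9 here, received IL-4 and IL-1β at 10 ng/ml each, and Th9(IL4+TGF-b+IL-1b) cells, called combined Th9 here, received all 3 of these cytokines. Th2 cells received IL-4 and IL-2, and all 4 cultures with IL-4 held a blocking antibody to IFN-γ (10 µg/ml). Th1 cells received IL-12 at 5 ng/ml and IL-2, with IL-4 blocked by an antibody (10 µg/ml). Since the Th2 medium held IL-2 and the Th9 media did not, a difference between a Th9 culture and Th2 cells cannot be told apart from a difference in added IL-2.

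IL-9 is made by Th9 cells, mast cells and some innate lymphocytes, and acts in allergic inflammation, in immunity to worms and in tumor models. In Th cells its gene is controlled by several factors acting together rather than by a single master regulator: STAT6 transmits the IL-4 signal, the STAT5 proteins transmit that of IL-2, BATF and IRF4 bind DNA as a joint complex, and the ETS family proteins PU.1 and ETV5 bring histone acetyltransferases to the gene. ID3 has no DNA-binding domain of its own and holds E proteins off DNA. STAT proteins are switched on by phosphorylation and ID3 and PU.1 act through partners, so the RNA level of a regulator and its activity are different quantities, and these arrays measured RNA alone.

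The promoter of *Il9*, on which these factors act, is shown first, because the binding letters of several of them lie close together in it. The sequence is the 250 bases before the RefSeq start of *Il9* on the minus strand of mouse GRCm38.p6, chr13:56482258-56482507, and positions are counted backwards from the start, with -1 as the base next to it.
Il9 promoter: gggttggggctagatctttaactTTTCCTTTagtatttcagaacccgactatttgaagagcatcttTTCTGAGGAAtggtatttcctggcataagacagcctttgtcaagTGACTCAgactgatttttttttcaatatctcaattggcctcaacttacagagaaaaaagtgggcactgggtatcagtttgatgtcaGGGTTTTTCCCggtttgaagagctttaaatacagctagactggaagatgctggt
The capitals mark, from left to right, an IRF match (AANNGAAA on the other strand, -227 to -220), a STAT6 match (TTC and GAA with 4 bases between them, -184 to -175), an AP-1 match (TGANTCA, -140 to -134), which is the class of site that BATF proteins bind with JUN partners, and an NF-κB match (GGG and CC with 5 bases between them, found on either strand as 2 overlapping hits from -54 to -44). The ETS core GGAA was found 5 times over both strands, with 1 copy inside the IRF match, 1 inside the STAT6 match and 1 inside the NF-κB match. The E-box CANNTG, the site of the E proteins that ID3 holds off, was found at -144 to -139, overlapping the AP-1 match by its last 2 bases, and at -110 to -105. Of 32851 promoter windows of the same length, searched on both strands, 21.3% held the IRF letters, 5.85% the STAT6 letters, 6.75% the AP-1 letters, 45.8% the NF-κB letters, 66.2% an E-box and 93.4% a GGAA. A match is a run of letters, and these arrays did not measure binding. By chromatin immunoprecipitation, the study found more RelA, an NF-κB subunit, at this promoter in IL-1β Th9 cells. The primers of that assay lie on either side of the NF-κB match.

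The promoters of *Irf8* and *Batf3*, which were both lower in every culture with IL-4 than in Th1 cells, are shown because each held a STAT5 match (TTCNNNGAA, in capitals), which 7.02% of all windows hold. They are the plus strand windows chr8:120736108-120736357 and chr1:191098164-191098413 of the same build.
Irf8 promoter: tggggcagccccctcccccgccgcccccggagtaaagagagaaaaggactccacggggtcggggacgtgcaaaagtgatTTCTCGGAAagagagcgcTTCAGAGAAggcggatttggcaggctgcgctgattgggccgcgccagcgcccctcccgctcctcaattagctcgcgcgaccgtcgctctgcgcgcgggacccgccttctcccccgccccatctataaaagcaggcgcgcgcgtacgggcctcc
Batf3 promoter: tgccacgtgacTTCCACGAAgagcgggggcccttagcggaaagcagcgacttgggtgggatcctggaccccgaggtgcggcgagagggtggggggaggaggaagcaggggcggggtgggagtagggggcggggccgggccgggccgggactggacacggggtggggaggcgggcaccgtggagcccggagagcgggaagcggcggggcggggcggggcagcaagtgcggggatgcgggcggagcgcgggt
The *Irf8* window held 2 such matches, starting at -171 and -153, and the *Batf3* window held 1, starting at -239. A window before another annotated start of *Irf8* held none. *Etv5* and *Id3* were also lower in every culture with IL-4 than in Th1 cells, and the *Id3* window held no STAT5 match. Neither the *Batf* window nor either of the *Etv5* windows held AP-1, STAT5 or STAT6 letters, and GGAA was found 4 times in the *Batf* window and 0 and 4 times in the *Etv5* windows. RefSeq windows were at hand for 10 of the 11 genes, that is for all but *Spi1*.

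Each condition was measured on 1 array, so a difference is one between 2 arrays, without a replicate check, an error or a p-value. The deposited values are log2 intensities, on which a difference of 0.58 is 1.5-fold and a difference of 1 is 2-fold. Differences past 1.5-fold were counted, and each count of regulators is set beside the share of all genes past the same mark. Array medians were between 5.41 and 5.44. The 1108 transcripts of olfactory receptors, which T cells are not known to use, served to gauge dim signals. Their differences had an SD between 0.246 and 0.299 over the 6 pairs of arrays compared, and a value below their 95th percentile, which lay between 5.32 and 5.39, is called dim here. All 10 regulators were above that percentile on every array. Levels are compared between arrays and not between genes, since probes differ in brightness.

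*Il9* had a log2 value of 4.49 in Th1, 7.53 in Th2, 8.77 in classic Th9, 10.84 in IL-1β Th9 and 12.11 in combined Th9 cells. The Th1 value lay among the dim signals. Where only 1 side of a difference was dim, the bright value is set against the 95th percentile of the olfactory transcripts on the dim array and the result is given as a lower bound. By this bound the other 4 arrays were at least 4.41-fold above Th1 cells. IL-1β came with a 9.91-fold higher value without TGF-β (IL-1β Th9 against Th2) and a 10.1-fold higher one with it (combined Th9 against classic Th9). TGF-β came with a 2.37-fold higher value without IL-1β and a 2.41-fold higher one with it. No regulator approached this range: *Il9* spanned at least 6.72 on the log2 scale over the 5 arrays, and the regulators spanned between 0.23 and 3.35. In bulk RNA a lower value may come from fewer cells that use the gene or from less RNA per cell, and these cannot be told apart.

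**Figure D1:**
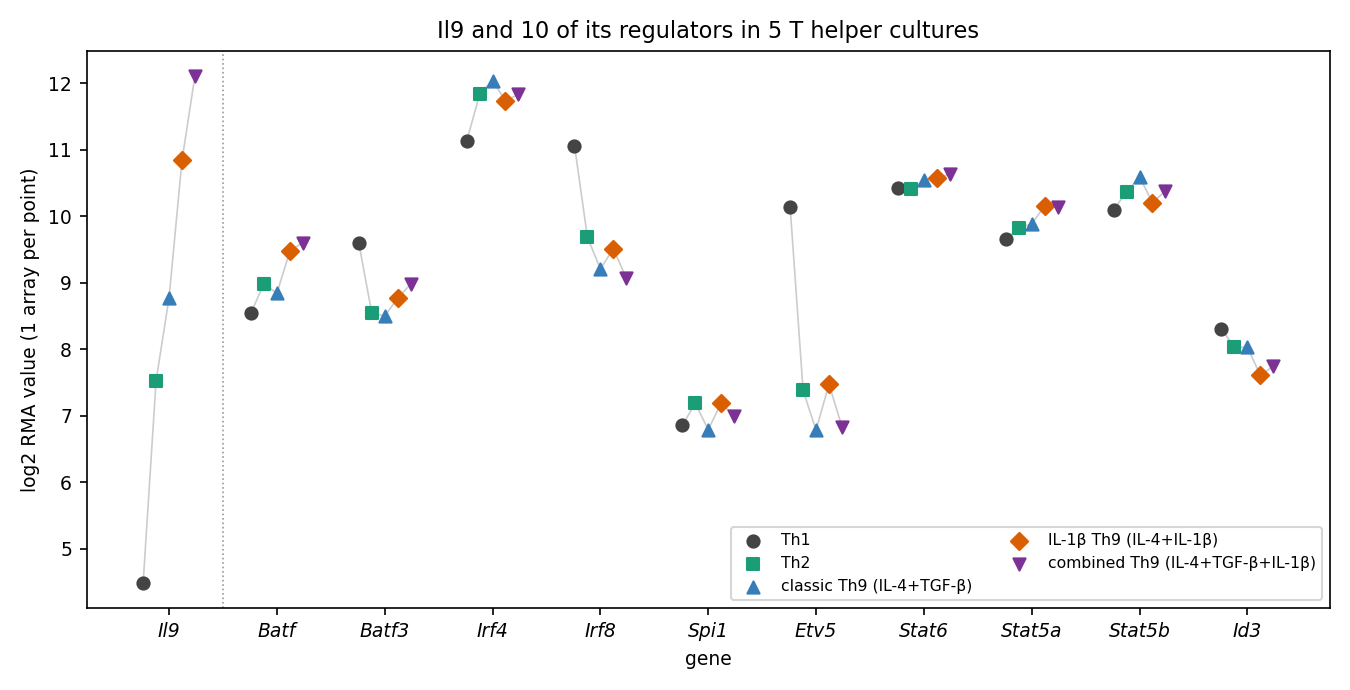
Log2 RMA value of *Il9* (left of the dotted line) and of the 10 regulators in the 5 arrays, 1 point per array, joined by a line in the order Th1, Th2, classic Th9, IL-1β Th9 and combined Th9. *Il9* climbs from 4.49 to 12.11, whereas *Stat6* stays between 10.40 and 10.63, and *Irf8*, *Batf3* and *Etv5* have their highest value in Th1 cells.

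Over the 5 arrays, 6 of 10 regulators spanned at least 1.5-fold (*Etv5*, *Irf8*, *Batf3*, *Batf*, *Irf4* and *Id3*), as did 16.1% of all genes. The median span of the regulators was 0.80, against 0.33 for all genes. Within the 4 cultures with IL-4, 3 of 10 did so (*Batf*, *Etv5* and *Irf8*), against 9.66% of all genes, and the median span was 0.41 against 0.28. Of the span of *Etv5*, *Irf8* and *Batf3*, the larger share thus lay between Th1 cells and the cultures with IL-4.

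IL-1β without TGF-β was read from IL-1β Th9 against Th2 cells. None of the 10 regulators differed by 1.5-fold, and 2.39% of all genes did. The differences ran from -0.42 (*Id3*) to 0.49 (*Batf*), with a median of 0.05, and the median of all genes was -0.01. IL-1β with TGF-β was read from combined Th9 against classic Th9 cells. There 1 of 10 regulators, *Batf*, was past 1.5-fold, against 1.96% of all genes, and the median was 0.07 against -0.01. These comparisons share no array with each other. In both of them all 10 regulators kept the same sign, 6 above 0 (*Batf*, *Batf3*, *Stat5a*, *Stat6*, *Etv5* and *Spi1*) and 4 below (*Irf4*, *Irf8*, *Stat5b* and *Id3*), as did 55.4% of all genes and 60.3% of those brighter than the median. With the arrays centred on the median, on the 75th percentile or on T cell markers, or normalized again by quantiles, 8 or 9 of 10 kept it. The value of *Spi1* without TGF-β was 0.00.

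TGF-β without IL-1β was read from classic Th9 against Th2 cells, and TGF-β with IL-1β from combined Th9 against IL-1β Th9 cells. These comparisons share no array with each other, but each shares an array with each of those for IL-1β. In both, 1 of 10 regulators was past 1.5-fold, and in both it was *Etv5*, which was lower. The shares of all genes were 3.05% and 3.0% in either direction and 1.77% and 1.79% lower. The median difference of the regulators was -0.02 without and 0.08 with IL-1β, against 0.02 and 0.01 for all genes. The sign was the same in both for 7 of 10 regulators, and for 57.1% of all genes or 62.5% of those brighter than the median, and under other scalings for 7 to 10 of them. *Etv5*, *Irf8* and *Spi1* were below 0 in both.

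**Figure D2:**
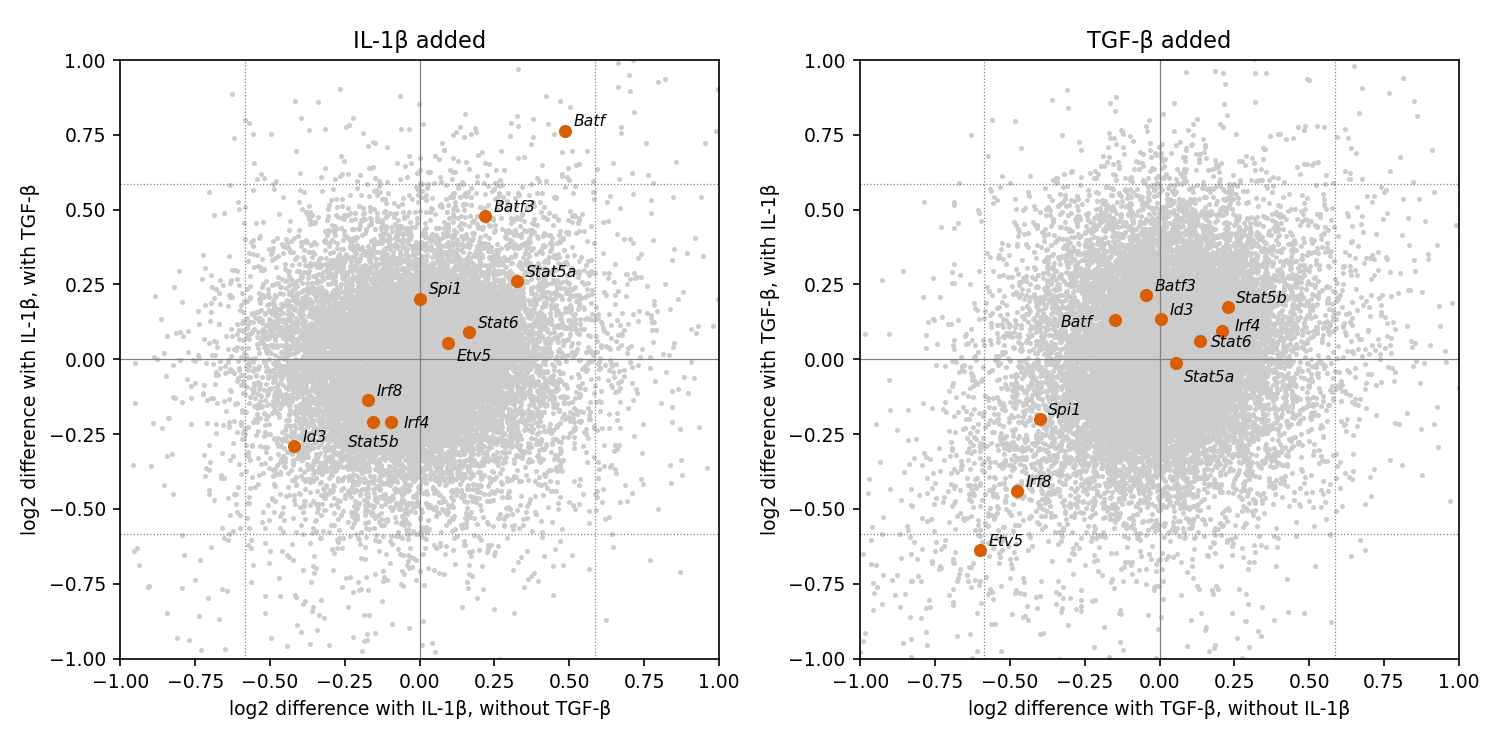
Log2 difference of each gene with IL-1β (left panel) or TGF-β (right panel) added, in the absence (x axis) and in the presence (y axis) of the other cytokine, with the 10 regulators in orange, all other genes in grey, and dotted lines at 1.5-fold. *Batf* lies at 0.49 and 0.76 for IL-1β and *Etv5* at -0.60 and -0.64 for TGF-β, and 88 and 149 genes, *Il9* among them, lie beyond the axes.

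*Batf* encodes a basic leucine zipper protein of the AP-1 family that is needed for the differentiation of several Th subsets. Its log2 value was 8.54 in Th1, 8.99 in Th2, 8.84 in classic Th9, 9.47 in IL-1β Th9 and 9.60 in combined Th9 cells. Both arrays with IL-1β were thus above the 3 without it. The difference with IL-1β was 0.49 without and 0.76 with TGF-β (1.70-fold), and 0.708% of all genes differed as much as the latter. The differences with TGF-β, -0.15 and 0.13, were smaller than the SD of olfactory transcripts.

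*Batf3*, a close relative best known for the development of cross-presenting dendritic cells, had a log2 value of 9.59 in Th1, 8.54 in Th2, 8.50 in classic Th9, 8.76 in IL-1β Th9 and 8.98 in combined Th9 cells. It was highest in Th1 cells, and among the cultures with IL-4 the arrays with IL-1β were again above those without. The differences with IL-1β were 0.22 and 0.48, both short of 1.5-fold. The 10 measured of 11 dendritic cell markers had a mean between 6.92 and 7.13 and a summed signal between 11.90 and 12.04, with *Xcr1*, *Siglech* and *Cadm1* among the dim signals on every array. Past 2-fold were *Itgax*, at 1.68 in Th2 against Th1 cells, and *Ly75*, at 1.07 between the IL-1β Th9 and classic Th9 cultures. The differences of the list with IL-1β had medians of -0.08 and 0.14. Their part in the *Batf3* values was not tested.

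*Irf4*, which encodes the interferon regulatory factor induced by T cell receptor signals, had a log2 value of 11.13 in Th1, 11.83 in Th2, 12.04 in classic Th9, 11.73 in IL-1β Th9 and 11.83 in combined Th9 cells. It was lowest in Th1 cells, and the 4 cultures with IL-4 lay within 0.30 of each other. Among these 4, the IL-1β Th9 culture, with the second highest *Il9* value, had the lowest *Irf4* value.

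*Irf8*, which encodes a factor of myeloid, B and T cells, ran the other way. Its log2 value was 11.06 in Th1, 9.68 in Th2, 9.21 in classic Th9, 9.51 in IL-1β Th9 and 9.07 in combined Th9 cells. Th1 cells stood 2.60-fold above Th2 cells, and both arrays with TGF-β were below the others, with differences of -0.48 and -0.44. A dimmer *Irf8* cluster, with values between 5.44 and 6.16, was also highest in Th1 cells. It was lowest in classic Th9 cells, whereas the brighter cluster was lowest in combined Th9 cells.

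*Spi1* encodes PU.1, an ETS factor that also directs myeloid and B cell development. Its log2 value was 6.85 in Th1, 7.19 in Th2, 6.79 in classic Th9, 7.19 in IL-1β Th9 and 6.99 in combined Th9 cells. The lowest value was that of classic Th9 cells, and the whole span was 0.40. Both differences with TGF-β, -0.40 and -0.20, were below 0 and short of 1.5-fold.

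*Etv5*, another ETS factor, had the widest span of the 10. Its log2 value was 10.14 in Th1, 7.38 in Th2, 6.78 in classic Th9, 7.47 in IL-1β Th9 and 6.84 in combined Th9 cells. Th1 cells thus stood 6.76-fold above Th2 cells, and both arrays with TGF-β lay below those without. The differences with TGF-β were -0.60 (1.51-fold) and -0.64 (1.56-fold), just past the mark, and fell short of it under several other scalings. Those with IL-1β were 0.09 and 0.06. A dimmer *Etv5* cluster lay between 5.88 and 5.98 and was not highest in Th1 cells.

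The 3 STAT genes, each bright on all arrays, were past 1.5-fold in no comparison. Between 1.96% and 5.84% of all genes were past the mark in a comparison, so a count of 0 of 3 is near the background. *Stat6* had a log2 value of 10.43 in Th1, 10.40 in Th2, 10.54 in classic Th9, 10.57 in IL-1β Th9 and 10.63 in combined Th9 cells, the smallest span of the 10. *Stat5a* was at 9.65, 9.83, 9.88, 10.15 and 10.14 in the same order. Its 2 highest values were those with IL-1β, with differences of 0.33 and 0.26. *Stat5b* was at 10.10, 10.36, 10.59, 10.21 and 10.38, and was highest in classic Th9 cells, with differences of -0.16 and -0.21 with IL-1β. The adjacent genes *Stat5a* and *Stat5b*, which encode near-identical proteins, thus differed in sign with IL-1β, although all of these values were within 1.5-fold, the difference between them was not tested, and probes that match both genes were not checked.

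*Id3*, the repressor, had a log2 value of 8.31 in Th1, 8.03 in Th2, 8.03 in classic Th9, 7.61 in IL-1β Th9 and 7.74 in combined Th9 cells. It was highest in Th1 cells, which had the lowest *Il9* value, and lowest in both arrays with IL-1β. The differences with IL-1β were -0.42 and -0.29, and those with TGF-β were 0.00 and 0.13.

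The 5 arrays give 10 pairs, and a regulator can be described by the number of pairs that it ordered as *Il9* did. *Batf*, *Stat6* and *Stat5a* ordered 9 of 10 pairs so, as did 3.81% of all genes or more closely. *Irf4* and *Stat5b* ordered 7, *Spi1* 6, *Batf3* 5, *Etv5* 3, *Id3* 2 and *Irf8* 1. The whole span of *Stat6*, 0.23, was below the SD of the olfactory transcripts in each of the 6 comparisons, so its order rests on differences smaller than the spread of dim signals. No regulator gave all 10 pairs, which 0.807% of all genes did. Of the 32 other known *Il9* regulators measured, only *Rbpj*, the DNA-binding partner of Notch, did so, with values of 10.83, 11.31, 11.42, 11.51 and 11.56. Its differences with either cytokine and between the IL-1β Th9 and classic Th9 cultures lay between 0.05 and 0.20. These too were smaller than the SD of the olfactory transcripts.

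Th2 against Th1 cells gave the largest differences. The Th2 medium held IL-4 and the antibody to IFN-γ, and the Th1 medium held IL-12 and the antibody to IL-4. The parts of these additions in the differences cannot be told apart. Past 1.5-fold were 4 of 10 regulators, against 5.84% of all genes (3.29% higher and 2.55% lower): *Irf4* was 1.63-fold higher in Th2 cells, and *Etv5*, *Irf8* and *Batf3* were 6.76-fold, 2.60-fold and 2.07-fold lower. The latter 3 were past 2-fold, as were 2.04% of all genes. *Gata3* and *Tbx21*, which mark Th2 and Th1 cells, differed by 3.65 and -3.17 and thus followed the labels.

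**Figure D3:**
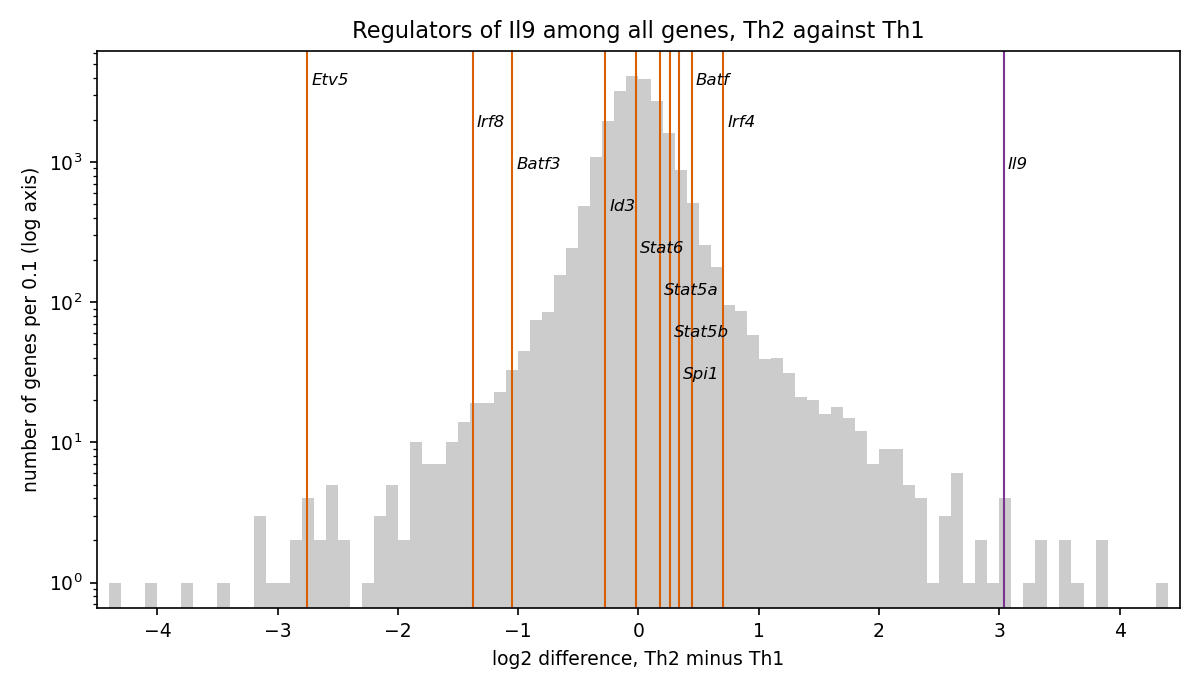
Number of genes (log axis) by log2 difference of Th2 minus Th1 cells, in steps of 0.1, with the 10 regulators as orange lines and *Il9* as a purple line. *Etv5* at -2.76, *Irf8* at -1.38 and *Batf3* at -1.05 lie in the left tail and *Il9*, drawn at its measured 3.04 although its Th1 value was dim, in the right one, and the other 7 regulators lie between -0.28 and 0.70.

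IL-1β Th9 against classic Th9 cells compares the alternative with the established way of making Th9 cells, and shares arrays with the comparisons above. Of 10 regulators 2 were past 1.5-fold, *Batf* (1.55-fold) and *Etv5* (1.62-fold), both higher in IL-1β Th9 cells, against 5.04% of all genes (2.69% higher and 2.34% lower), while *Il9* was 4.19-fold higher. The other 8 lay between -0.42 (*Id3*) and 0.40 (*Spi1*). The median was 0.27, against -0.03 for all genes.

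The families of the 10 regulators were counted in the same comparison, beside the 5.04% of all genes past 1.5-fold. Of 18 other ETS genes 3 were past the mark, *Erg* at -1.02, *Ets1* at -0.63 and *Spib* at 0.59. *Erg* was also the only ETS gene of the list past 1.5-fold with TGF-β, at 0.68 and 0.91. Of 5 other IRF genes, 13 other AP-1 genes and 3 other STAT genes none was, and with so few genes such a count is near the share of all genes. The larger differences of these lists lay in Th2 against Th1 cells, where *Jun*, a DNA-binding partner of BATF, stood at -2.08 and *Irf1* at -1.30. With IL-1β, *Atf3* was the 1 AP-1 gene of the list past 1.5-fold, at 0.65 with TGF-β, and it stood at 0.52 without. The STAT genes with the largest differences of their list were *Stat4*, at -0.34 for TGF-β with IL-1β, and *Stat2*, at -0.30 for TGF-β without it. Of 6 other Id and E protein genes, *Tcf4* was past the mark between the Th9 cultures at 0.59, and *Id4* stood at -0.41.

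Of 32 measured genes on a list of other *Il9* regulators, 4 were higher and 3 lower in IL-1β Th9 than in classic Th9 cells, against 2.69% and 2.34% of all genes. The largest difference was that of *Prdm1*, which encodes the repressor BLIMP-1, at 1.70, and its log2 value was 8.65 in IL-1β Th9, 8.28 in Th2 and 9.33 in Th1 cells but 6.95 in classic Th9 and 7.03 in combined Th9 cells. The others were *Pparg* at 0.88, *Tbx21* at 0.65 and *Nfkb2* at 0.63, and on the lower side *Foxp3* at -0.95, *Runx1* at -0.76 and *Foxo1* at -0.60. *Gata3*, which IL-4 induces through STAT6, lay between 10.28 and 10.50 in the 4 cultures with IL-4. With IL-1β, none of the 32 was past 1.5-fold without or with TGF-β, against 2.39% and 1.96% of all genes. For a list of 32 genes such a count is near the background.

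Of 16 measured receptors and kinases of the IL-4, IL-2, IL-1, TGF-β and costimulatory pathways, 1 was past 1.5-fold in this comparison, against 5.04% of all genes: *Tgfbr1*, a TGF-β receptor subunit, stood at -1.13. In Th2 against Th1 cells 4 of the 16 were higher and 2 lower past 1.5-fold, against 3.29% and 2.55% of all genes. *Il1r1*, the IL-1 receptor, was higher by at least 2.32, and its Th1 value was just among the dim signals. *Il4ra* was higher by 1.70 and *Jak2* and *Tgfbr1* by 1.15 each. On the lower side, *Myd88* stood at -0.92 and *Il7r* at -0.89. Among the cultures with IL-4, *Il1r1* lay between 7.20 and 7.71 and *Il4ra* between 11.66 and 12.02. None of 14 targets of STAT5 and STAT6 was past 1.5-fold with either cytokine or between these Th9 cultures, and with between 1.96% and 5.04% of all genes past the mark in these comparisons a count of 0 of 14 is near the background.

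Of 11 products of Th9 and Th2 cells, *Il9* included, 8 were higher with IL-1β without TGF-β and 7 with it, against 1.25% and 0.861% of all genes, and none was lower. With TGF-β, *Il9* alone was higher, against 1.28% and 1.21% of all genes, and 3 products were lower without and 5 with IL-1β, against 1.77% and 1.79%. Between IL-1β Th9 and classic Th9 cells 8 were higher, against 2.69%. These counts use measured values, and between 1 and 5 of the 11 products were dim on an array. Both sides were dim for *Csf2* with IL-1β in the presence of TGF-β. The same held for *Il3*, with TGF-β in the presence of IL-1β and between these Th9 cultures. By the lower bound, 2 counted differences fell short of the mark. They were *Il5* with IL-1β in the presence of TGF-β (1.17-fold) and *Il21* with TGF-β in the absence of IL-1β (1.27-fold). *Il13* stood at 4.70 between these Th9 cultures, and at -1.74 and -1.01 with TGF-β. *Csf2*, *Il21* and *Il5* were dim in classic Th9 cells and were at least 4.41-fold, 5.58-fold and 2.01-fold higher in IL-1β Th9 cells. *Il24* stood at 1.42 and *Ccl17* was at 9.04 against 8.03. *Ccl22* and *Il4* were within 1.5-fold between these cultures, at 0.35 and 0.40, and were past 2-fold in Th2 against Th1 cells. The largest difference of a regulator between these Th9 cultures was 0.69.

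**Figure D4:**
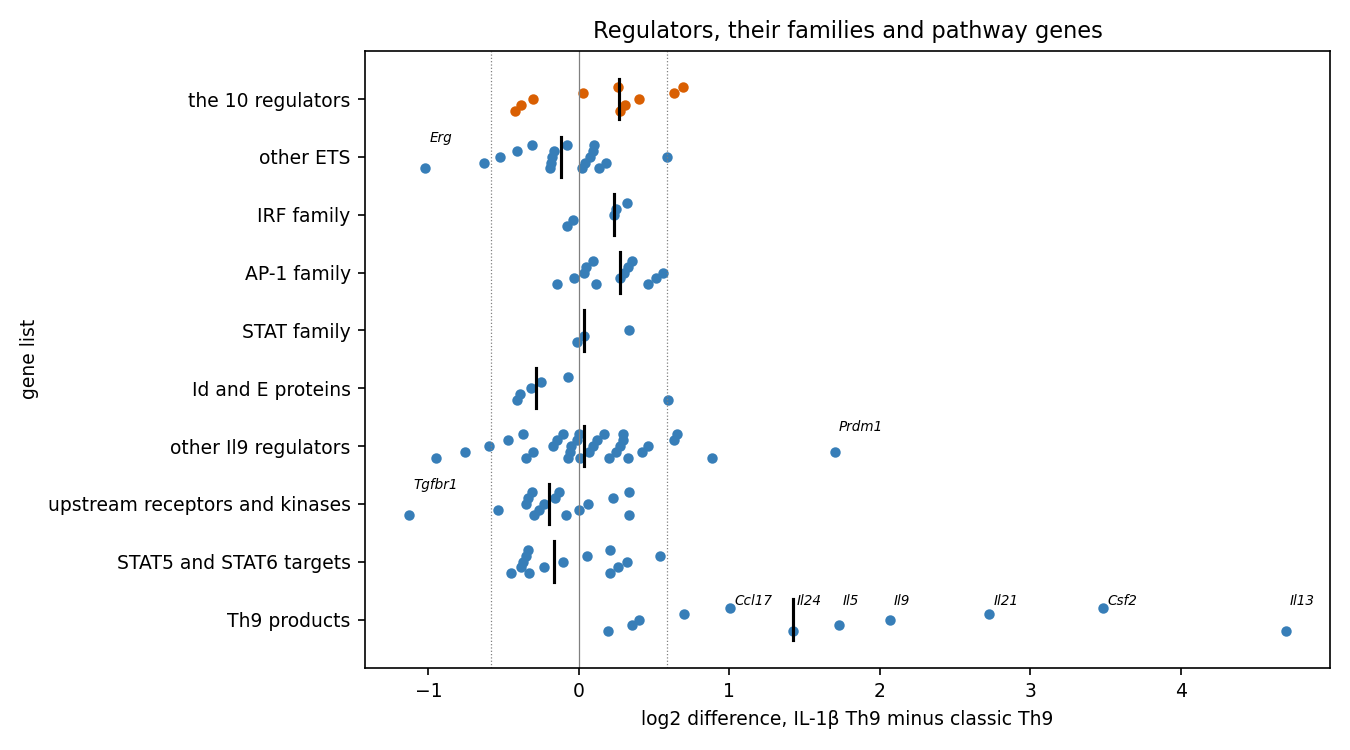
Log2 difference between IL-1β Th9 and classic Th9 cells, 1 point per gene, for the 10 regulators (orange) and 9 other gene lists (blue), with the median of each list as a black bar, dotted lines at 1.5-fold and genes past 2-fold named. The regulators lie between -0.42 and 0.69, *Erg*, *Tgfbr1* and *Prdm1* lie past 2-fold, and the products of Th9 cells reach 4.70 with *Il13*; *Csf2*, *Il21* and *Il5* are drawn at measured differences although their classic Th9 values were dim.

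Several of the regulators are also used by other cells that such cultures can hold, and markers of these cells moved between the arrays. The 9 measured of 12 T cell markers had a mean log2 value of 10.90, 10.76, 11.00, 10.62 and 10.84 in the order of the arrays above, and were bright on all of them. Their largest differences were those of *Lat*, at -0.82 between the IL-1β Th9 and classic Th9 cultures, and of *Cd28*, at -0.58 in Th2 against Th1 cells. The 11 measured of 12 B cell markers had a mean of 9.15, 9.54, 8.92, 9.49 and 9.05, and their summed signal lay between 13.38 and 14.01 on the log2 scale. Of them 7 were lower with TGF-β without IL-1β (median -0.60) and 3 with it (median -0.40), against 1.77% and 1.79% of all genes, and none was higher. Past 2-fold were *Vpreb3* at 1.73, *Cr2* at -1.54 and *Cd79b* at 1.22 in Th2 against Th1 cells, and *Blnk*, at 10.24 in IL-1β Th9 against 9.23 in classic Th9 cells. *Spi1*, *Irf8*, *Etv5* and the B cell markers were thus all lower with TGF-β than in the matched array without it, and the part of B cells in these values was not tested.

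The 6 plasma cell markers had a mean of 7.06, 8.23, 6.69, 8.42 and 6.93, and *Tnfrsf17* was among the dim signals on every array. The plasma cell gene *Jchain* was at 9.30 in Th2 and 9.63 in IL-1β Th9 cells, but at 4.68 in classic Th9 and 4.89 in combined Th9 cells, with 7.03 in Th1 cells. Both values with TGF-β were dim, and *Jchain* was at least 19.0-fold higher in IL-1β Th9 than in classic Th9 cells. *Mzb1* and *Derl3* were also past 2-fold between these Th9 cultures, at 2.45 and 2.05. Summed, the plasma cell markers were at 10.73, 12.09, 11.11, 12.23 and 11.07. *Irf4*, which plasma cells also use, ran opposite to their mean among the cultures with IL-4, with its highest value in classic Th9 and its lowest in IL-1β Th9 cells. The *Irf4* values of Th2 and combined Th9 cells, both 11.83, were nearly equal. *Prdm1*, another plasma cell gene, ran with this mean among these 4 cultures. The part of plasma cells in the *Irf4* and *Prdm1* values was not tested.

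The 14 myeloid markers had a mean between 6.54 and 7.11, highest in Th2 and IL-1β Th9 cells, the arrays in which *Spi1* was also highest, and a summed signal between 11.43 and 11.96. Of the 3 myeloid markers past 2-fold in any comparison, *Lyz2*, which encodes lysozyme, was at 6.43 in Th1, 8.07 in Th2, 8.44 in classic Th9, 7.0 in IL-1β Th9 and 7.74 in combined Th9 cells, and was thus highest where *Spi1* was lowest. *Cd68* was at 8.24, 9.36, 8.85, 9.39 and 8.91 and *Cybb* at 10.57, 10.16, 9.10, 10.01 and 9.21 in the same order, both lower in classic Th9 than in Th2 cells, as *Spi1* was. The part of myeloid cells in the *Spi1* values was not tested.

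Of 11 mast cell and basophil markers, whose cells also make IL-9, between 5 and 7 were dim on each array, and their mean lay between 5.28 and 5.61. Of those past 2-fold, *Cpa3* was at 7.95, 9.27, 8.26, 8.93 and 8.18, *Mcpt8* at 6.48, 7.05, 5.95, 6.85 and 6.16, and *Kit* at 8.07, 6.72, 6.78, 6.61 and 6.60. The part of these cells in the *Il9* values was not tested.

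**Figure D5:**
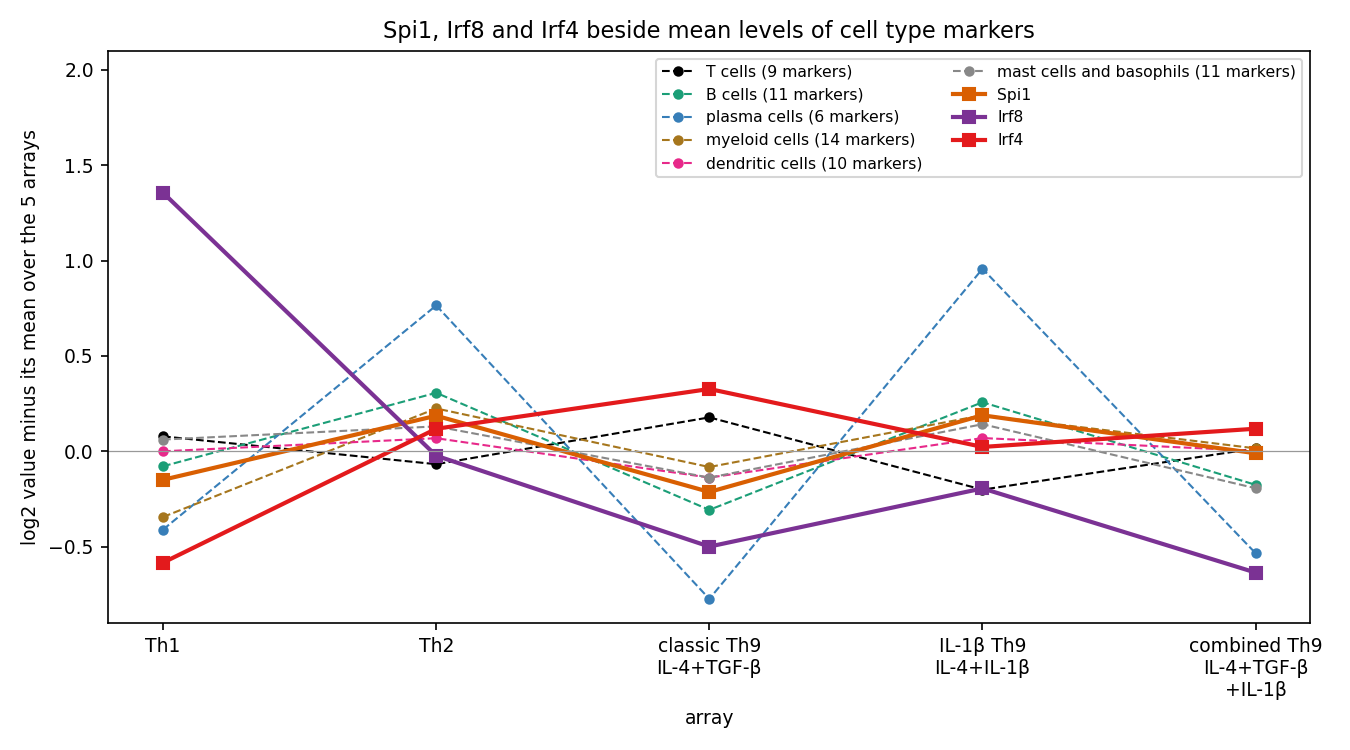
Log2 value of *Spi1*, *Irf8* and *Irf4* (squares, thick lines) and mean log2 value of 6 lists of cell type markers (circles, dashed lines) in the 5 arrays, each minus its own mean over the arrays. *Spi1* lies lowest in classic Th9 cells, where the B cell, plasma cell and myeloid lists are also below 0, and *Irf8* lies highest in Th1 cells.

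Genes with the pattern most like that of *Il9* and of the 4 regulators that spanned at least 1 were sought among 638 other genes that spanned at least 1, had a mean above the median of all transcripts and were not unnamed gene models or antigen receptor segments, by the root mean square difference of the centred log2 values over the 5 arrays. They were chosen for this likeness, which is a description of 5 values. For *Batf3* they were *Gja1* (0.040), *Slc24a3* (0.064) and *Fcrl5* (0.083). For *Irf8* they were *Nkg7* (0.077), a gene of cytotoxic granules, *Ms4a6b* (0.088) and *Mpeg1* (0.089). For *Etv5* they were *Plac8* (0.051), *Tbx21* (0.17), the Th1 master regulator, and *Gbp5* (0.22), an interferon-induced GTPase. For *Batf* they were *Stbd1* (0.12), *Ociad2* (0.12) and *Kctd1* (0.14). *Il9* had the widest span of all genes and a dim value in Th1 cells, so that its distance to any other gene was large from the outset, and the nearest were *Nts* (1.05), *Ccl17* (1.41) and *Il13* (1.47).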

How the data were processed

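RNA of 5 Th cultures, 1 per condition as the sample labels name them, was hybridized to Affymetrix Mouse Gene 2.0 ST arrays. The authors summarized probes by RMA in Affymetrix Expression Console and deposited log2 values (41345 transcript clusters, 0 missing), which were used as they are. Program versions and the array's genome build are not stated in any source used here. The platform annotation gives 1 symbol for 23521 clusters and several for 1820, and the rest are unnamed here. Each gene is its cluster with the highest mean. With 1 array per condition no test was possible, and the number of arrays limits the precision. The 10 genes, the gene lists and the rules were chosen with earlier results of these data known. Named are the 10 genes and *Il9*, list members past 2-fold or else the 2 with the largest difference (some others were named after their values were seen), and the 3 genes most like each wide-ranging profile. Some genes of the lists have no cluster with 1 symbol in the tables used and are not analysed here. Promoter windows are those of RefSeq for GRCm38.p6. The alternatives were centring on the median, the 75th percentile or T cell markers, a second quantile normalization, log2(value + 16), other ways to pick a cluster, brighter genes only and a 2-fold mark. Python 3.11.15, numpy 2.4.6, pandas 2.3.3 and matplotlib 3.10.9 were used.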

Additional observations from a re-analysis of the deposited data

Results flagged for a closer look

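The difference with TGF-β had opposite signs without and with IL-1β for 3 regulators. It was -0.15 and 0.13 for *Batf*, -0.0445 and 0.22 for *Batf3*, and 0.0542 and -0.0122 for *Stat5a*. All of these were smaller than the SD of the olfactory transcripts in the same comparison, and whether the paired values differ was not tested, since each rests on 2 arrays.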

How the results depend on the processing

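Single differences of *Il9* and the 10 regulators stayed within the SD of the olfactory transcripts of their deposited value in 446 of 462 recalculations, and no difference past 1.5-fold changed its sign. Counts of regulators past 1.5-fold moved in 20 of 72. At the 75th percentile centring, the second quantile normalization, log2(value + 16), the mean over clusters and the 2-fold mark, *Etv5* was no longer past the mark with TGF-β, with or without IL-1β (0 in place of 1). In IL-1β Th9 against classic Th9 cells the count went from 2 to 1 at the 75th percentile centring and with the mean over clusters, against 5.72% and 4.91% of all genes. At 2-fold it was 0, as was that for IL-1β with TGF-β, and 3 in place of 5 regulators were past the mark in any comparison. With the mean over clusters *Etv5* was at -0.28 with TGF-β in the presence of IL-1β, at 0.36 between these Th9 cultures and at -1.38 in Th2 against Th1 cells, where *Irf8* was at -0.94. The dim Th1 value of *Il9* made its Th2 difference 2.38 with log2(value + 16). Centring on the T cell markers, chosen after the data were seen, shifted the median of all genes by 0.38 between these Th9 cultures, and by 0.13, 0.16, -0.25, -0.22 and 0.15 in the order IL-1β without and with TGF-β, TGF-β without and with IL-1β, and Th2 against Th1. It gave counts of 1 and 2 with IL-1β, against 3.38% and 3.02% of all genes, and 3 and 2 with TGF-β, against 6.79% and 6.05%. Between these Th9 cultures it gave 6, against 17.5% of all genes, with *Batf* at 1.01, *Etv5* at 1.07 and *Irf4* at 0.08 rather than -0.30. Since the median moved with them, these counts are relative to T cell RNA. The 75th percentile centring changed the split of all genes past 1.5-fold from 278 higher and 252 lower to 197 and 427 for IL-1β without TGF-β, from 269 and 396 to 502 and 279 for TGF-β with IL-1β, and from 597 and 520 to 437 and 832 between these Th9 cultures, and T cell marker centring gave 3782 and 94 there. The cause of these shifts was not tested. No paired analysis was possible because each condition has 1 array.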

Other observations

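The 32 other regulators of *Il9* differed most between Th2 and Th1 cells, where 7 were higher and 7 lower past 1.5-fold, against 3.29% and 2.55% of all genes. Higher in Th2 cells were *Gata3* (3.65 on the log2 scale), *Runx1* (1.15), *Ahr* (1.02) and *Pparg* (1.02), and lower were *Tbx21* (-3.17), *Irf1* (-1.30) and *Prdm1* (-1.05). With TGF-β, *Foxp3*, the regulator of regulatory T cells, stood at 0.92 without and 0.56 with IL-1β, *Maf* at 0.77 and 0.63, and *Prdm1* at -1.33 and -1.63. With IL-1β, none of the 4 measured genes of NF-κB subunits was past 1.5-fold without or with TGF-β, against 2.39% and 1.96% of all genes. A count of 0 of 4 is near that background. All values were above 0, with *Nfkb2* at 0.32 and 0.51, *Relb* at 0.06 and 0.44, *Rel* at 0.19 and 0.26, and *Rela* at 0.14 and 0.06. *Nfkb2* was past the mark, at 0.63, in IL-1β Th9 against classic Th9 cells. *Nfkb1* had no cluster with 1 symbol. Of the 14 targets of STAT5 and STAT6, *Gata3*, *Il4ra* (1.70) and *Socs2* (1.02) were higher and *Pim2* (-0.75), *Ccnd3* (-0.75) and *Osm* (-0.66) lower in Th2 than in Th1 cells. Differences of this size rest on 1 array per condition, with no replicate check.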
